A study of Mus musculus with 24 samples.

Results

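The mitochondrial calcium uniporter complex was followed here through 7 genes, chosen by name: the channel subunits Mcu, Mcub and Smdt1, the gatekeeper Micu2, the regulator Mcur1, and the exchanger genes Letm1 and Slc8b1. All 7 were found among the 55414 genes listed in the count table, all 7 passed the filter on low counts, and they were tested among 10566 genes. The cells were Tconv CD4+ cells (CD4+ CD25-) taken from the spleen by magnetic sorting. They came from conplastic mice, in which the nuclear genome is that of C57BL/6J throughout and the cells hold either the C57BL/6J mitochondrial DNA (mtDNA B6, called WT in the sample labels) or that of the NZB strain (mtDNA NZB). Resting cells were compared with cells activated for 72 h with CD28/CD3 beads and IL-2, with 6 libraries for each haplotype and state and 24 in all. Most experiments of the study used males of 2 to 3 months, and the labels give neither age nor sex nor the animal behind a library. The p-values therefore measure the spread between these libraries, part of which may be technical.

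Calcium that enters a T cell after antigen receptor engagement activates calcineurin and NFAT, and part of it is taken up by mitochondria. Uptake runs through the uniporter of the inner mitochondrial membrane. MCU forms its pore, MCUB is a paralog that joins the pore and lowers its conductance, and EMRE, the product of Smdt1, ties the pore to the MICU proteins that keep it shut at low cytosolic calcium. MCUR1 is known as a factor for uniporter assembly. Matrix calcium leaves through NCLX, a sodium-calcium exchanger encoded by Slc8b1, while LETM1 is an inner membrane protein of cation and proton exchange. All 7 genes are nuclear, so none lies in the mtDNA that differs between the haplotypes.

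RNA was measured by a bulk form of MARS-seq, in which the 3′ end of each polyadenylated molecule receives a unique molecular identifier (UMI), and copies made by amplification count as 1. In GRCm39, Mcu lies at chr10:59282806-59452522 on the minus strand and Mcub at chr3:129707425-129763869 on the minus strand. Micu2 spans chr14:58153706-58236767 on the minus strand, Smdt1 chr15:82223160-82235678 on the plus strand and Mcur1 chr13:43691869-43713738 on the minus strand. Letm1 and Slc8b1 share chromosome 5, at chr5:33897011-33940209 on the minus strand and chr5:120649173-120672102 on the plus strand. The last 1000 transcribed bases of Mcu, Mcub, Micu2, Mcur1 and Letm1 are 3′ UTR throughout. For Slc8b1 980 of the last 1000 bases are 3′ UTR, and for Smdt1 the transcript model used is 749 bases long with 251 bases of 3′ UTR. Mcub shares 328 exonic bases of that stretch with Casp6 on the opposite strand, and Smdt1 shares 360 with the lncRNA Gm62022 on the opposite strand. The methods do not state whether counting used strand, so reads of these pairs may not be told apart.

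The promoter of Smdt1 held a motif that the other members' promoters did not. RefSeq promoter windows of 300 bases (GRCm38.p6) matched 6 of the 7 genes by symbol or identifier, Slc8b1 being the exception. They were searched on both strands for the cAMP response element TGACGTCA, for its half-site TGACG, which the full element contains, and for the E-box CACGTG. The full element was found in 1 of the 6 windows, that of Smdt1, against 1.79% of all 32851 windows. The Smdt1 window was also the only one with the half-site, present in 20.8% of all windows, and none of the 6 held the E-box, present in 7.15%. The 30 bases around the element, which begins 146 bases before the start site, are shown with the element in capitals, at chr15:82345889-82345918 of GRCm38.p6, plus strand.
Smdt1: cgtccttctccTGACGTCActacgtcgtcc
The match is a description of these letters and was searched for after the levels were known.

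The libraries held between 51409 and 6449395 UMI counts. Resting mtDNA NZB replicate 2 had the lowest total and activated mtDNA NZB replicate 1 the next, 641467, while the other 22 held at least 2157475. In resting mtDNA NZB replicate 2 the members had between 0 and 7 counts each, with no count of Mcub or Slc8b1, so the levels given below for resting mtDNA NZB cells are those of the other 5 libraries. The fits use all 24 libraries. An earlier examination of these data had singled out this library, resting mtDNA NZB replicate 6 and activated mtDNA NZB replicate 6, and the values without the 3 are given where a call, a direction or a count changed. The T cell genes Cd4 and Cd3e were high in all groups, with mean levels of 550 to 641 and 273 to 329 CPM (UMI counts per 1000000, after TMM scaling). Of the same marker list, Cd3d averaged 448 to 673 CPM, Cd5 201 to 333 and Cd28 only 6.82 to 13.3. On activation Cd3d was called higher and Cd5 lower in both haplotypes. Il2ra, the CD25 gene, averaged 3.00 CPM at rest and 79.8 after activation in mtDNA B6 cells, and 3.35 and 111 in mtDNA NZB cells. Other activation markers were mixed. Tnfrsf4, Tnfrsf9 and Mki67 also had higher means after activation in both haplotypes, while Cd69 and Myc had lower ones. Cd69 went from 64.6 to 4.84 CPM in mtDNA B6 and from 59.1 to 5.35 in mtDNA NZB cells, and Myc from 131 to 75.9 and from 118 to 101. Markers of other cells were not absent, at rest or after activation. The summed CPM of 5 myeloid and 6 granulocyte genes had a median of 3744 (range 1313 to 8304) in resting mtDNA B6 libraries and 1662 (856 to 20030) in resting mtDNA NZB libraries, and its highest value in an activated library was 250.2. In activated mtDNA B6 and mtDNA NZB libraries the summed CPM of 4 B cell genes had medians of 384 and 316. The medians there were 277 and 164 for 2 CD8 T cell genes, and 140 and 97.8 for 3 platelet genes. At rest these 3 sums had medians of 255, 68.6 and 14.6 in mtDNA B6 libraries. Over all 6 resting mtDNA NZB libraries they were 312, 51.8 and 16.4. CPM is a share of a library's RNA, so fewer cells of a type and less RNA per cell cannot be told apart.

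On activation the members moved in both directions. In mtDNA B6 cells 3 of the 7 rose, Smdt1, Mcub and Micu2, and 3 fell, Slc8b1, Mcu and Mcur1, called by edgeR's quasi-likelihood test at a threshold of 0.05 on p-values adjusted by Benjamini-Hochberg, with no fold limit. Over all genes tested 22.4% were called higher and 24.5% lower in this comparison, 46.9% in either direction. In mtDNA NZB cells the same 3 genes rose and 2 fell, Slc8b1 and Mcur1, against a background of 25.2% higher and 28.4% lower, 53.5% in all. The median log2 difference of the members was 0.26 in mtDNA B6 and 0.19 in mtDNA NZB cells, where the medians of all genes were -0.03 and -0.06. Only Slc8b1 reached a log2 difference of 1 in size in mtDNA B6 cells, where 17.7% of genes did so, and Slc8b1 and Mcub did in mtDNA NZB cells, where 23.4% did. Leaving out the 3 libraries also gave 6 and 5 members. The count in mtDNA B6 cells was 3 with a second, larger count table, and that in mtDNA NZB cells was 3 with the label number of the libraries as a block.

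**Figure D1:**
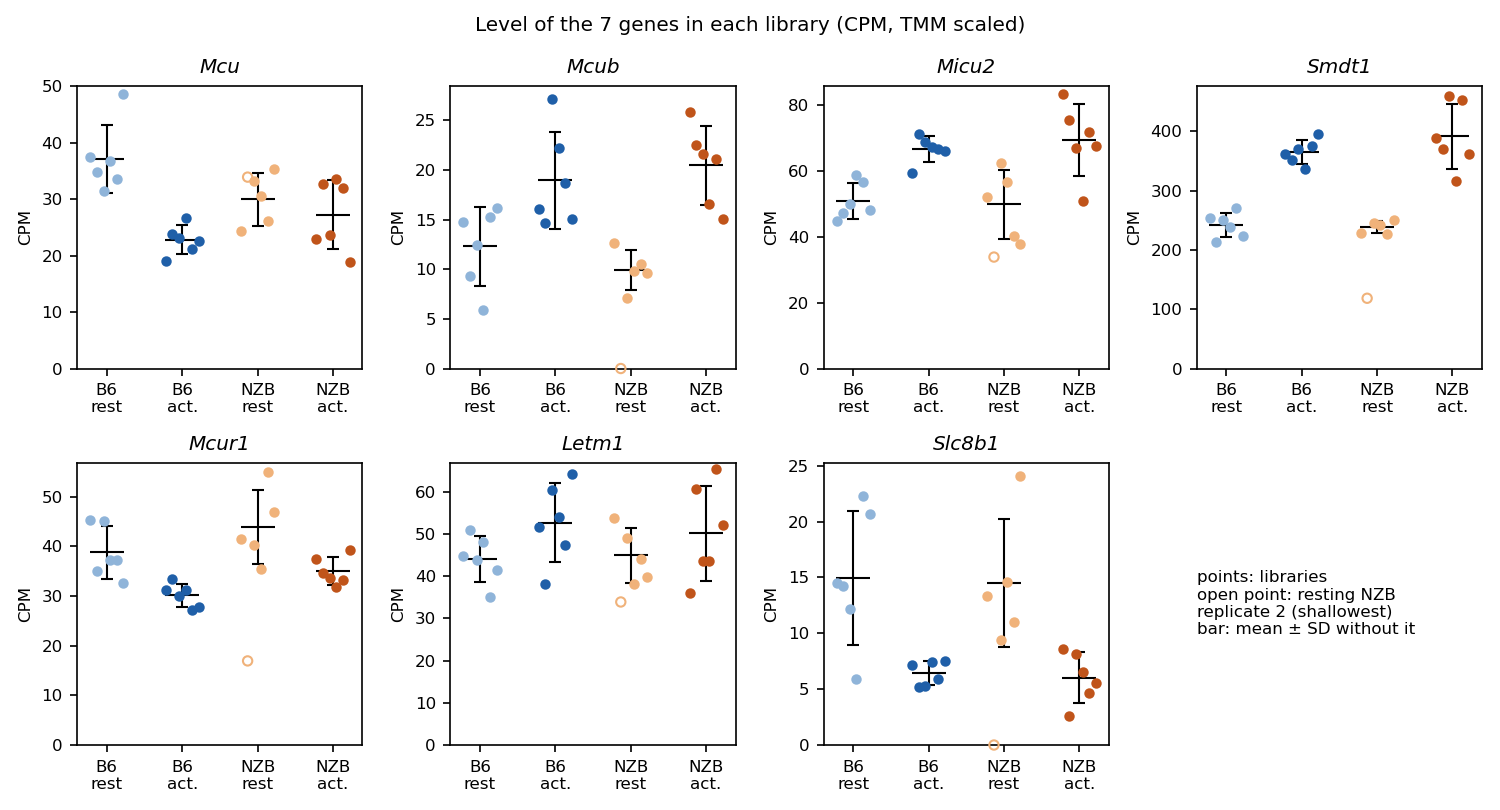
Level of each gene (y axis, CPM after TMM scaling) in the 24 libraries by haplotype and state; filled points are libraries, the open point is resting mtDNA NZB replicate 2, and bars give the mean and SD of the others. Smdt1 lies above its resting levels in every activated library of both haplotypes, and Mcu lies lower in every activated than in every resting mtDNA B6 library.

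Mcu, the pore-forming subunit, fell in mtDNA B6 cells. Its level ran from 31.4 CPM through a median of 35.8 to 48.5 in the 6 resting libraries and from 19.1 through 22.9 to 26.7 in the 6 activated ones. The groups did not overlap, as was so for 16.4% of genes in the downward direction. The fitted log2 difference was -0.70 (SE 0.14, adjusted p = 2.89e-04, edgeR's quasi-likelihood test). In mtDNA NZB cells Mcu ran from 24.4 through 30.5 to 35.3 CPM at rest (n = 5) and from 18.9 through 27.7 to 33.5 after activation (n = 6). Those ranges overlapped, with activated replicates 1, 3 and 6 below all 5 resting libraries, and the log2 difference of -0.14 (SE 0.15, adjusted p = 0.475, edgeR) was not called. Without the 3 libraries it was 0.04, of opposite sign.

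The difference between these 2 responses of Mcu was tested itself. It came to 0.56 on the log2 scale (SE 0.21, 95% interval 0.13 to 1.00) with an adjusted p of 0.240 in edgeR, so a haplotype difference in the response of Mcu was not called. Without the 3 libraries it was 0.74, with an adjusted p of 0.0603 in edgeR. This was the member with the lowest p for the interaction.

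Mcub, the paralog that lowers pore conductance, rose in both haplotypes. In mtDNA B6 cells it ran from 5.87 through 13.6 to 16.2 CPM at rest and from 14.7 through 17.4 to 27.1 after activation, and the 2 ranges overlapped. The log2 difference was 0.61 (SE 0.21, adjusted p = 0.0205, edgeR). This call was lost when resting replicate 2, resting replicate 4 or activated replicate 3 was left out, with a highest adjusted p of 0.0675 and a log2 difference of at least 0.48. It was also lost with the second count table (0.59, adjusted p = 0.0773, edgeR). In mtDNA NZB cells Mcub ran from 7.05 through 9.79 to 12.7 CPM at rest and from 15.1 through 21.3 to 25.9 after activation, without overlap, as was so in the upward direction for 11.9% of genes over all 12 libraries and 14.1% over these 11. The log2 difference was 1.03 (SE 0.24, adjusted p = 6.96e-04, edgeR). Casp6, the caspase gene on the other strand of its 3′ end, had a log2 difference of 0.33 (SE 0.13) in mtDNA B6 and 0.52 (SE 0.14) in mtDNA NZB cells, with adjusted p of 0.0339 and 0.00242 in edgeR, and its part in the counts of Mcub was not tested.

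Smdt1, which encodes EMRE, had the smallest adjusted p of the members in both haplotypes. It ran from 214 through 245 to 272 CPM in resting and from 336 through 366 to 395 in activated mtDNA B6 libraries. In mtDNA NZB libraries the levels were 227 through 242 to 250 CPM at rest and 317 through 379 to 460 after activation. No activated library of either haplotype fell into the resting range of its group. In mtDNA B6 cells 15.4% of genes were likewise without overlap in the upward direction. In mtDNA NZB cells 11.9% were over all libraries, and 14.1% without resting replicate 2. The log2 differences were 0.59 (SE 0.11, adjusted p = 7.69e-05) and 0.77 (SE 0.11, adjusted p = 2.94e-06) in edgeR's test.

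Micu2, the gatekeeper of the pore, rose by less. Its levels in mtDNA B6 cells were 44.9 through 49.0 to 58.7 CPM at rest and 59.6 through 67.0 to 71.3 after activation. These did not overlap, as was so for 15.4% of genes in the upward direction. In mtDNA NZB cells they were 37.7 through 52.1 to 62.5 CPM and 51.0 through 69.7 to 83.4, with overlap. The log2 differences were 0.39 (SE 0.12, adjusted p = 0.0108) and 0.47 (SE 0.13, adjusted p = 0.00325) by edgeR. With the second count table the mtDNA B6 call was lost (0.33, adjusted p = 0.0881, edgeR).

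Mcur1, the assembly factor, was called lower in both haplotypes. It ran from 32.7 through 37.2 to 45.4 CPM in resting and from 27.1 through 30.6 to 33.3 in activated mtDNA B6 libraries. In mtDNA NZB libraries it ran from 35.5 through 41.4 to 55.0 CPM at rest and from 31.8 through 34.1 to 39.3 after activation. Resting and activated ranges overlapped in both haplotypes. The log2 differences were -0.37 (SE 0.12, adjusted p = 0.0131) and -0.30 (SE 0.12, adjusted p = 0.0439) in edgeR's test. The mtDNA NZB call was the weakest of the 11: it was lost in 15 of the 24 fits that left out 1 library, with an adjusted p of up to 0.153 without resting mtDNA NZB replicate 5. The mtDNA B6 call was lost without resting mtDNA B6 replicate 3, at -0.28 with an adjusted p of 0.0710, without the filter on low counts (adjusted p = 0.0745) and with the second table (adjusted p = 0.0570, all edgeR). DESeq2 gave the mtDNA NZB difference an adjusted p of 0.0603.

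Among the exchangers, Letm1 was not called and Slc8b1 had the largest fold of the 7. Letm1 ran from 35.1 through 44.3 to 51.0 CPM in resting and from 38.2 through 52.9 to 64.2 in activated mtDNA B6 libraries, and from 38.1 through 44.0 to 53.7 and 35.9 through 47.8 to 65.3 in mtDNA NZB libraries. Its log2 differences were 0.26 (SE 0.14, adjusted p = 0.131, 95% interval -0.03 to 0.55) and 0.19 (SE 0.15, adjusted p = 0.281, interval -0.11 to 0.50) in edgeR.

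Slc8b1, the gene of the efflux exchanger NCLX, ran from 5.87 through 14.4 to 22.3 CPM in resting and from 5.20 through 6.51 to 7.53 in activated mtDNA B6 libraries. One resting library lay within the activated range. In mtDNA NZB libraries it ran from 9.40 through 13.4 to 24.1 CPM at rest and from 2.61 through 6.05 to 8.63 after activation, without overlap once resting replicate 2 with its count of 0 was left aside, as for 13.9% of genes in the downward direction (6.95% with that library). The log2 differences were -1.23 (SE 0.28, adjusted p = 9.17e-04) and -1.31 (SE 0.31, adjusted p = 9.66e-04) in edgeR.

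**Figure D2:**
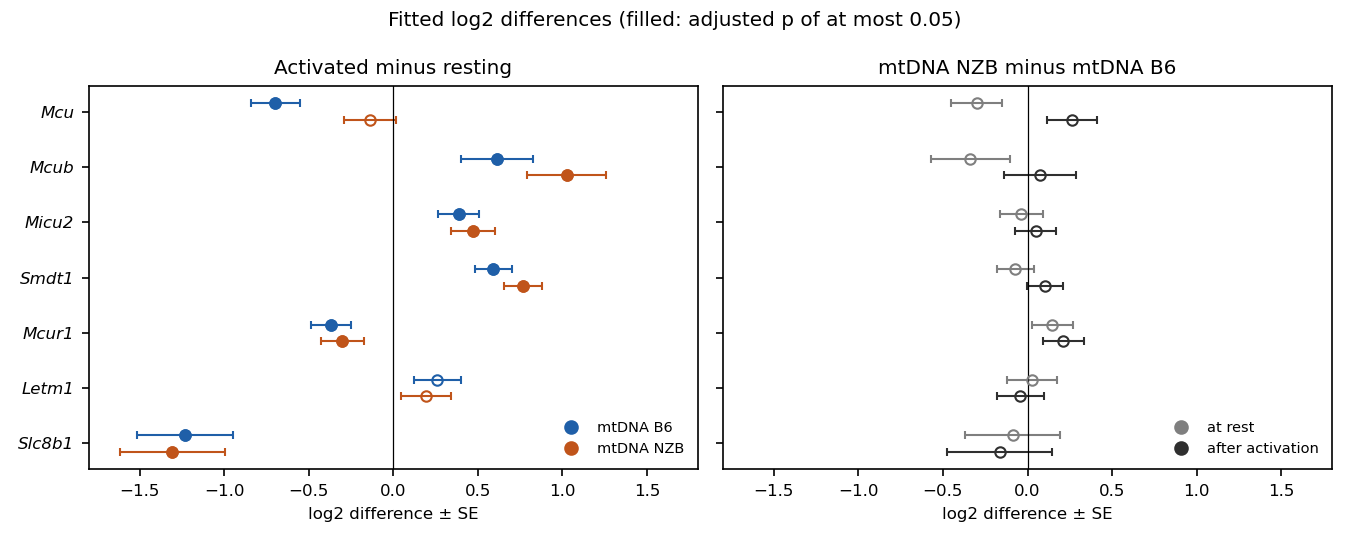
Fitted log2 differences with their SE (x axis) for the 7 genes (y axis), on the left for activation in each haplotype and on the right for mtDNA NZB against mtDNA B6 at rest and after activation; filled points have an adjusted p of at most 0.05. Activation called 6 and 5 of the 7 genes, and no haplotype difference on the right was called.

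The fall of Slc8b1 went with a fall of myeloid, granulocyte and most erythroid marker RNA, but not of the markers of every other cell type. All 5 myeloid and all 6 granulocyte markers were lower after activation in both haplotypes, and 4 of 5 erythroid markers were. Both CD8 T cell markers were higher in both haplotypes, and of the 4 B cell markers none was called. Of the 2 platelet markers tested, 2 were higher in mtDNA B6 and 1 in mtDNA NZB cells. The 1 NK cell marker tested was lower in both. Across the 11 resting libraries other than mtDNA NZB replicate 2, log2 Slc8b1 CPM and the log2 summed CPM of the myeloid and granulocyte genes correlated with r = 0.769 (permutation p = 0.00527) and rho = 0.80 (permutation p = 0.00447). Adjusted over the 14 such relations computed, for 7 genes in 2 states, the permutation p-values were 0.0738 and 0.0626. Without the 2 libraries farthest from the median marker sum r was 0.610, and within the 6 mtDNA B6 libraries it was 0.731. Across the 12 activated libraries, where the marker sum was low, r was 0.140 (permutation p = 0.680) and rho 0.476 (permutation p = 0.122). The part of these cells in the fall of Slc8b1 was not tested. For the other 6 genes at rest r lay between -0.578 (Letm1) and 0.543 (Mcu), with adjusted permutation p-values of at least 0.347. Without the 2 farthest libraries r was 0.731 for Smdt1 and 0.679 for Mcub, both above that of Slc8b1. The remaining genes then lay between -0.542 (Letm1) and 0.397 (Mcu). Within the mtDNA B6 libraries r was 0.812 for Mcub, also above that of Slc8b1, and from -0.798 (Letm1) to 0.520 (Mcu) for the remaining genes. Within the 5 mtDNA NZB libraries r was 0.953 for Slc8b1 and 0.094 for Mcub. It lay there between -0.575 (Micu2) and 0.590 (Smdt1) for all genes but Slc8b1.

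**Figure D3:**
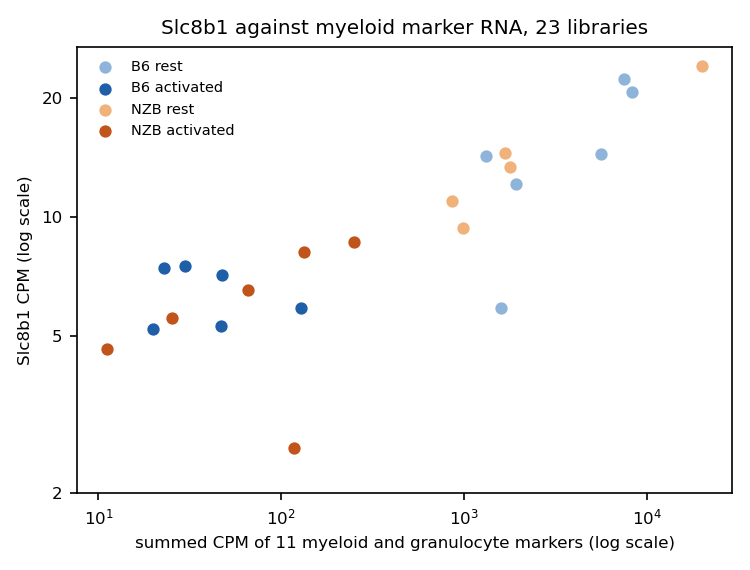
Slc8b1 level (y axis, CPM, log scale) against the summed CPM of 11 myeloid and granulocyte markers (x axis, log scale), one point per library, coloured by group, without resting mtDNA NZB replicate 2. The resting libraries lie to the right, all but 1 above every activated library in Slc8b1, and among them the 3 with over 20 CPM also have the 3 highest marker sums.

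Since the members moved in different directions, their counts were set against that of Mcu within each library, a ratio that needs no library scaling. The ratios reuse the counts already tested above and all share those of Mcu. Their tests are therefore not independent of the single-gene results or of each other, and the fall of Mcu in mtDNA B6 cells enters each of them. Libraries with at least 10 counts of both genes entered, which left out resting mtDNA NZB replicate 2 alone. The Mcub to Mcu ratio had a median of 0.362 (range 0.160 to 0.455) in resting and 0.837 (0.615 to 1.17) in activated mtDNA B6 libraries. In mtDNA NZB libraries it had a median of 0.321 (0.212 to 0.521) at rest and 0.742 (0.493 to 1.13) after activation. The log2 ratio rose by 1.37 (SE 0.26) and by 1.20 (SE 0.28), with exact permutation p of 0.00217 and 0.00649, and 0.0144 and 0.0260 after adjustment over the 20 ratio tests. The first is the smallest p that 6 against 6 libraries can give. The mtDNA NZB call was lost, with an adjusted permutation p of 0.0635, when any of activated replicates 1, 2, 3, 5 and 6 was left out, and it was 1.11 with an adjusted p of 0.0794 (permutation test) without the 3 libraries. A limit of at least 20 counts of both genes also lost it (1.08, adjusted permutation p = 0.0635).

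The ratio of Smdt1 to Mcu also rose in both haplotypes. Its median went from 6.63 (4.61 to 8.11) to 16.7 (12.6 to 18.9) in mtDNA B6 and from 7.95 (7.08 to 9.41) to 15.5 (9.46 to 19.5) in mtDNA NZB libraries. The log2 ratio rose by 1.29 (SE 0.15) and by 0.85 (SE 0.19), with adjusted exact permutation p of 0.0144 and 0.0217. The second was lost without resting mtDNA NZB replicate 3 or 6, at an adjusted permutation p of 0.0571, and without the 3 libraries (0.73, adjusted permutation p = 0.0635).

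Micu2 to Mcu went from a median of 1.47 (0.992 to 1.69) to 2.98 (2.52 to 3.15) in mtDNA B6 libraries, a log2 rise of 1.09 (SE 0.13) with an adjusted exact permutation p of 0.0144. In mtDNA NZB libraries it had medians of 1.86 (1.07 to 2.14) and 2.57 (1.52 to 3.63), a log2 difference of 0.64 (SE 0.26) that was not called at an adjusted exact permutation p of 0.141. The ratio of Mcur1 to Mcu was not called in either haplotype, with log2 differences of 0.34 (SE 0.17) and -0.16 (SE 0.24). None of the 4 ratios was called in the haplotype comparisons or in the difference of the responses, where the lowest adjusted permutation p was 0.141, for Mcur1 to Mcu at rest (0.48, SE 0.22). Because capture at the 3′ end can differ between genes, a ratio of counts is not a ratio of subunits.

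**Figure D4:**
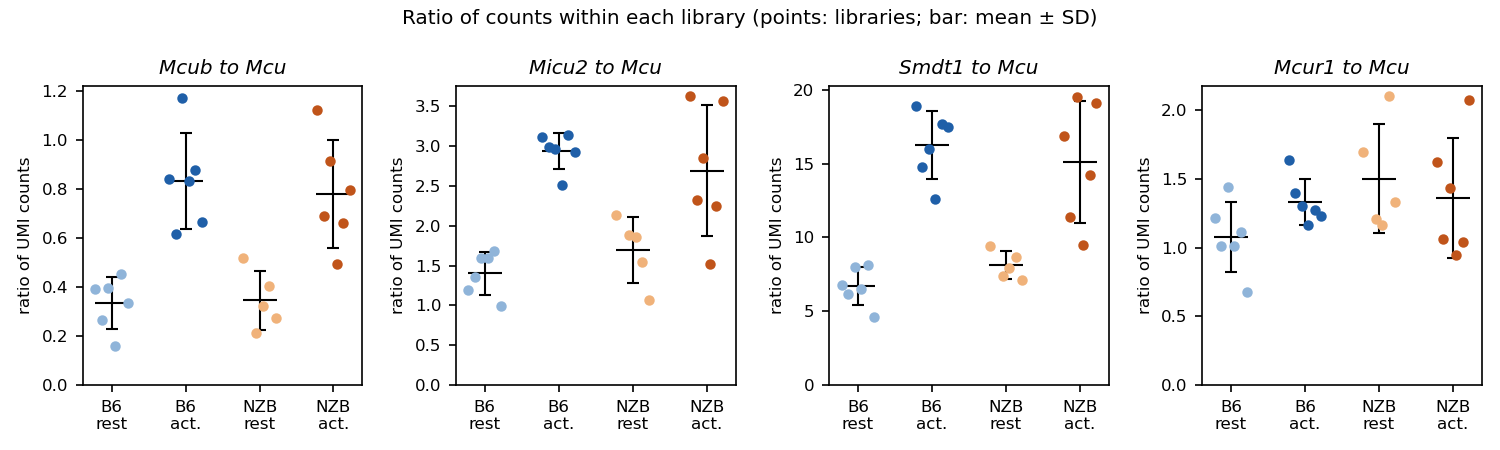
Ratio of UMI counts to those of Mcu (y axis) for Mcub, Micu2, Smdt1 and Mcur1 in each library, by haplotype and state (x axis); points are libraries and bars the mean and SD. For Mcub, Micu2 and Smdt1 every activated mtDNA B6 library lies above every resting one.

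The haplotypes themselves were next compared in each state. At rest none of the 7 genes was called, by edgeR's quasi-likelihood test, where 2.76% of all genes, or 292, were, a count that ran from 0 to 587 when 1 library was left out. Without the 3 libraries 662 genes were called at rest, 242 higher and 420 lower, in place of 201 and 91, and 1 gene was with sets of libraries by reads per UMI as a term. When only the 2 resting groups were fitted, 0 of 9907 genes were called. The log2 differences, mtDNA NZB minus mtDNA B6, lay between -0.34 for Mcub (SE 0.24, 95% interval -0.82 to 0.15) and 0.15 for Mcur1 (SE 0.12, interval -0.10 to 0.40). Mcu had the lowest adjusted p, 0.250 in edgeR, at -0.30 (SE 0.15, interval -0.61 to 0.01). Smdt1 differed by -0.07 (SE 0.11, interval -0.30 to 0.15). After activation none of the 7 was called either, and by edgeR's test 0 of the 10566 genes were, with 327 (3.09%) at an unadjusted p under 0.05 and 0 by DESeq2. The members' log2 differences lay between -0.16 for Slc8b1 (SE 0.31, interval -0.80 to 0.47) and 0.26 for Mcu (SE 0.15, interval -0.04 to 0.57).

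The response to activation was not called different between haplotypes for any member. Over all genes edgeR's test called 0 and DESeq2 1, with 1512 genes (14.3%) at an unadjusted p under 0.05 in edgeR, and Mcu was the 1 member among these. Once the 3 libraries were left out edgeR called 113 genes, 95 higher and 18 lower, and no member. The differences of the responses of the others lay between -0.08 for Slc8b1 (SE 0.42, interval -0.93 to 0.78) and 0.41 for Mcub (SE 0.32, interval -0.24 to 1.06). For Slc8b1 and Mcub, the genes with the fewest counts, these intervals are wide.

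Libraries fell into 3 sets of 8 by reads per UMI (1.88 to 1.96, 2.11 to 2.24 and 2.68 to 2.80), which are spread unevenly over the groups. Of the activated mtDNA B6 libraries 5 lie in the first set, where no resting one does. Within the middle set, with 4 resting and 1 activated mtDNA B6 library, the log2 difference was -0.72 for Mcu, 0.89 for Mcub, 0.42 for Micu2, 0.65 for Smdt1, -0.58 for Mcur1 and -0.90 for Slc8b1, each of the sign found over all libraries. In mtDNA NZB cells 2 of the 3 sets hold 1 resting and 2 activated libraries each, and the last holds 3 and 2. Each set gave the sign of the whole for Mcub (0.60 to 1.31), Smdt1 (0.58 to 0.82), Micu2 (0.16 to 0.76), Mcur1 (-0.33 to -0.16) and Slc8b1 (-1.64 to -0.85), while Mcu gave -0.44, 0.44 and -0.37. With the set as a term in the edgeR fit, the calls of Micu2 in mtDNA B6 cells (0.28, adjusted p = 0.174) and of Mcur1 in mtDNA NZB cells (adjusted p = 0.0513) were lost.

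Across the 23 libraries with over 500000 UMI counts, levels of Smdt1 correlated with those of Micu2 (r = 0.777) and Mcub (r = 0.750) and ran against those of Mcu (r = -0.603). These are descriptions over libraries that share 2 states. Once the group means were removed, the corresponding values were 0.312, 0.184 and -0.149. The genes whose log2 level was most like that of Smdt1 were Sdhb (r = 0.972), a subunit of respiratory complex II, Ncaph2 (r = 0.959), of condensin II, and Ndufs8 (r = 0.959), of respiratory complex I. For Slc8b1 they were Fes (r = 0.926), a tyrosine kinase gene of myeloid cells, Ceacam1 (r = 0.919), an adhesion molecule, and Hcar2 (r = 0.910), a receptor for hydroxycarboxylic acids. Mcub was most like Nek6 (r = 0.867), a mitotic kinase gene, Micu2 most like Ppp5c (r = 0.907), a protein phosphatase gene, and Mcu most like Pabir1 (r = 0.818). The best matches of Mcur1, Tprg1l (r = 0.850), and of Letm1, Med25 (r = 0.771), a Mediator subunit, came to values of the same order.

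Other genes of mitochondrial calcium handling were counted as a list of 20, of which 17 were tested. On activation 6 were higher and 4 lower in mtDNA B6 cells, against 4 and 2 in mtDNA NZB cells, beside the shares over all genes given above. Micu3 was not tested, with at most 2.36 CPM in any library. The outer membrane channel gene Vdac1 rose by 0.67 (SE 0.14) in mtDNA B6 and by 1.13 (SE 0.15) in mtDNA NZB cells, and Vdac2 by 0.75 (SE 0.13) and 0.68 (SE 0.13). Slc25a25, a calcium-regulated ATP-Mg/phosphate carrier gene, fell by 1.28 (SE 0.18) and by 1.59 (SE 0.19), and Letm2, the paralog of Letm1, fell by 1.12 (SE 0.21) and by 1.12 (SE 0.23). The median log2 difference of the 17 genes was 0.16 in mtDNA B6 and 0.23 in mtDNA NZB cells. With the library set as a term the counts were 3 higher and 2 lower in mtDNA B6, and 5 higher and 2 lower in mtDNA NZB cells. They were 7 and 4, and 6 and 2, without the 3 libraries.

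Genes of calcium entry and transport at the other membranes, 16 tested of 17, gave 4 that rose and 4 that fell in mtDNA B6 and 2 and 6 in mtDNA NZB cells (2 and 7 there without the 3 libraries). Over all genes 22.4% were called higher and 24.5% lower in mtDNA B6 cells, and 25.2% and 28.4% in mtDNA NZB cells. The inositol trisphosphate receptor gene Itpr2 fell by 0.88 (SE 0.16) and by 0.99 (SE 0.17), Itpr3 fell by 0.70 (SE 0.17) and by 0.69 (SE 0.18), and Orai2, of the plasma membrane calcium channel family, fell by 0.74 (SE 0.19) and by 0.77 (SE 0.19). Atp2b4, a plasma membrane calcium pump gene, rose by 1.23 (SE 0.22) in mtDNA B6 and by 0.87 (SE 0.24) in mtDNA NZB cells. In the calcineurin and NFAT list all 10 genes were tested. Beside 22.4% and 25.2% of all genes higher and 24.5% and 28.4% lower, 5 rose in mtDNA B6 and 2 in mtDNA NZB cells. None of the 10 was called lower. With the library set as a term 3 were higher for mtDNA B6, while for mtDNA NZB 1 was higher and 1 lower, Ppp3r1, a calcineurin subunit gene. The counts without the 3 libraries were 5 higher for mtDNA B6, and 2 higher and 1 lower, again Ppp3r1, for mtDNA NZB. Calm3, a calmodulin gene, rose by 0.63 (SE 0.10) and by 0.93 (SE 0.11), and Nfatc2 by 0.52 (SE 0.17) and by 0.44 (SE 0.17), the latter call being lost in both of these other fits. The median log2 difference was 0.01 and -0.23 in the entry and transport list and 0.39 and 0.07 in the calcineurin and NFAT list.

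At rest 3 genes of these lists (1 of 17, 2 of 16 and 0 of 10 tested, in the order above) were called higher in mtDNA NZB cells by edgeR, where 1.9% of all genes were: Orai1, the calcium entry channel gene (1.16, SE 0.26, adjusted p = 0.0298), Saraf, a gene for a store-operated entry regulator (1.01, SE 0.27, adjusted p = 0.0427), and Ghitm, an inner membrane protein gene (0.66, SE 0.18, adjusted p = 0.0494). Orai1 ran from 90.3 through a median of 104 to 335 CPM in resting mtDNA NZB libraries. In resting mtDNA B6 libraries it ran from 69.7 through 76.6 to 97.4, which overlapped. Saraf ran from 305 through 367 to 1356 CPM and from 267 through 302 to 343, again with overlap. A fit of the 2 resting groups alone called 0 of 9907 genes. With the library set as a term none of the 3 was called, and no gene at all was called higher at rest when resting mtDNA B6 replicate 1 or 4 or resting mtDNA NZB replicate 5 was left out. Over the 21 libraries Orai1 and Saraf remained called, as did Ghitm, beside Slc25a25. Between resting and activated mtDNA NZB cells Saraf fell by 1.07 (SE 0.27) and Orai1 by 0.99 (SE 0.26), both called. In mtDNA B6 cells their log2 differences of -0.08 (SE 0.26) and -0.27 (SE 0.26) were not called. Between haplotypes after activation, and for the difference of the responses, none of the genes of the 3 lists was called.

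**Figure D5:**
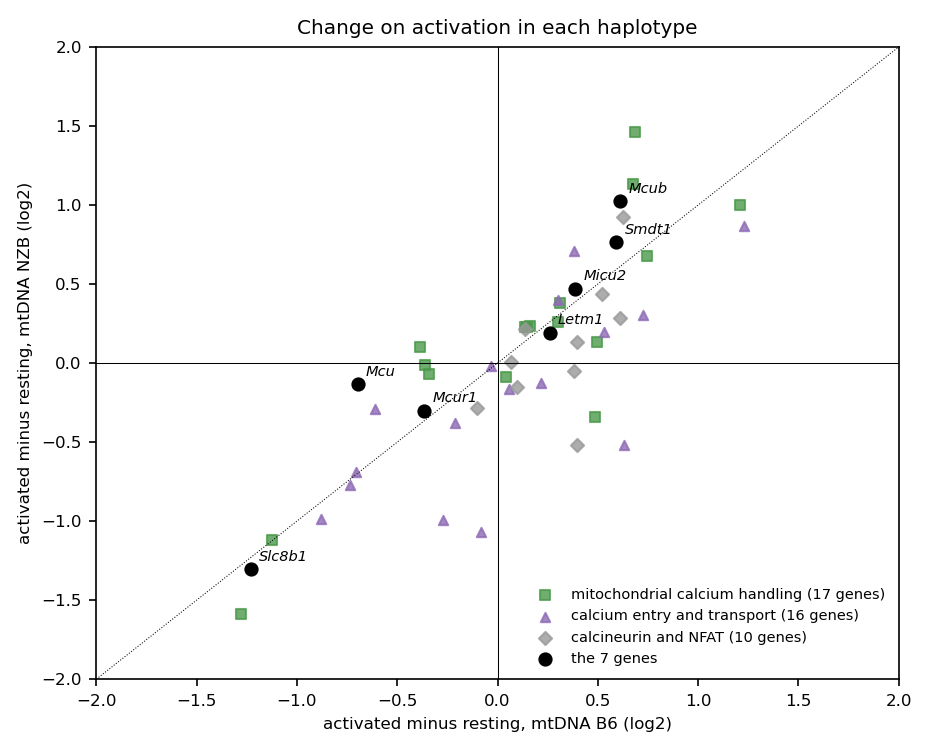
Log2 difference between activated and resting cells in mtDNA B6 (x axis) and mtDNA NZB (y axis) for the 7 genes (black, named) and the tested genes of the 3 calcium lists; the dotted line marks equal values. Slc8b1 lies at the lower left at -1.23 and -1.31, and Mcu lies at -0.70 and -0.14.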

How the data were processed

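The authors trimmed reads with cutadapt, dropped those under 30 bases, aligned the rest with STAR against the last 1000 bases (3′ UTR regions) of the genes of GRCm39, Ensembl 106, counted them with htseq-count (HTSeq) and corrected UMI counts for saturation; no tool versions are given in the sources used here. The deposited counts are whole numbers that are not scaled to library size. A second deposited table of larger counts, not described separately, served as an alternative, and 1 column of the tables that matched no sample was not used. The methods give 60 ng of RNA per library and the labels 30 ng. Of the 25030 genes with a count, 24820 were found in the annotation used for names, and the others held 0.0272% of the counts.

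Groups were taken from the sample titles. The 7 genes, the gene lists and the 3 doubted libraries were chosen with earlier results of these data known. After TMM scaling and filterByExpr, 1 model with a mean for each of the 4 groups was fitted and tested by the quasi-likelihood method of edgeR 4.0.16 (R 4.3.3), with Benjamini-Hochberg adjustment over the 10566 genes tested and calls at an adjusted p of at most 0.05. The SE is the log2 difference divided by the square root of F, and 95% intervals use it without adjustment. Ratios were tested by two-sided exact permutation of libraries (Python 3.11.15, scipy 1.17.1). Genes named beyond the 7 are Micu3 and at most 4 further genes of a list and comparison by smallest p; 1 further gene under this rule is not reported here. No 2 libraries of a group were alike within sampling noise (lowest chi-square over its degrees of freedom 2.77), and each was taken as 1 replicate. The edgeR fit was tested on simulated counts, for activation in mtDNA B6 cells only.

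Label numbers shared by resting and activated libraries of a haplotype formed 9 pairs. Deviations from the group means correlated from -0.16 to 0.25 within them. According to the methods, isolated T cells were split into a resting and an activated part. The sources do not say that a number marks an animal, so the numbers were not taken to pair libraries. Pairing remains possible, and results with the number as a block are given. Alternatives were DESeq2 1.42.0, RLE size factors, a stricter filter (30 counts in 4 libraries) or none, the second table, fits of 2 groups, replicate blocks, the library set as a term, other count limits for ratios, and leaving out libraries. The list counts in other fits, the values within library sets, the marker relation and the promoter motifs were chosen after seeing the data.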

Additional observations from a re-analysis of the deposited data

Results flagged for a closer look

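Of the 44 groups of 5 or 6 values examined, levels and ratios, 3 held a library far from the others, where chance alone flags about 1 in 20 groups. Resting mtDNA B6 replicate 6 had 48.5 CPM of Mcu, above the other 5 libraries of its group. Resting mtDNA NZB replicate 2, the library with the fewest counts, had 118.6 CPM of Smdt1, below the others, from 7 counts. Activated mtDNA B6 replicate 4 had a Micu2 to Mcu ratio of 2.52, the lowest of its group.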

How the results depend on the processing

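No call reversed under an alternative; every reversal was of an uncalled difference. On activation in mtDNA B6 cells 3 members were called with the second count table, where uncalled differences of Slc8b1 turned to 0.0184 (haplotypes after activation) and 0.133 (difference of responses) and of Mcur1 to Mcu to 0.0135 (haplotypes after activation). With a replicate block by label number 3 members were called in mtDNA NZB cells, Letm1 there came to -0.00524, and the differences of responses to -0.0269 for Micu2 and 0.143 for Slc8b1. Paired by label number, the Mcub to Mcu ratio rose by 1.43 (permutation p = 0.0625, the smallest that 5 pairs allow) and by 1.35 (permutation p = 0.125, 4 pairs), and Mcur1 to Mcu in mtDNA NZB cells by 0.130. The number was not taken to pair libraries: 4 of 18 libraries correlated best with the partner of their number. With the library set as a term the haplotypes after activation differed by -0.0702 for Mcub and 0.0957 for Letm1, and the responses by 0.00827 for Letm1. Without the 3 libraries Mcu on activation in mtDNA NZB cells came to 0.0419, Micu2 at rest between haplotypes to 0.0617, the differences of responses to -0.00807 for Micu2 and 0.157 for Slc8b1, and Mcub to Mcu in mtDNA NZB cells to 1.11. With 0.5 added to both counts Mcub to Mcu at rest between haplotypes was -0.0626 and Mcur1 to Mcu on activation in mtDNA NZB cells 0.0526. With at least 20 counts of both genes Mcub to Mcu at rest was -0.140. On activation in mtDNA NZB cells it was then 1.08, and that call was lost (adjusted permutation p = 0.0635). Mcur1 on activation in mtDNA NZB cells lost its call in every alternative fit but those with RLE size factors and without the 3 libraries; the highest adjusted p, 0.317 in edgeR, came with the second count table. With the label block Mcub in mtDNA B6 cells (adjusted p = 0.119) and Micu2 in mtDNA NZB cells (adjusted p = 0.106) lost theirs. The causes were not tested.

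Leaving out each library in turn, 5 to 6 members were called in mtDNA B6 and 4 to 5 in mtDNA NZB cells. Mcub to Mcu ranged from 1.17 to 1.47 and from 1.04 to 1.36 on activation, from -0.140 to 0.217 between haplotypes at rest, from -0.228 to 0.00988 after activation, and from -0.330 to 0.0268 for the difference of responses. Uncalled differences that changed sign were those of Letm1 (-0.0493 to 0.0780 at rest, -0.130 to 0.0190 after activation, -0.154 to 0.00666 for the responses), Micu2 at rest (-0.129 to 0.0449), Slc8b1 (-0.342 to 0.0715 at rest, -0.236 to 0.173 for the responses) and Mcur1 to Mcu after activation (-0.152 to 0.0744). Mcu on activation in mtDNA NZB cells ranged from -0.200 to -0.0288, and the difference of responses of Micu2 from 0.00205 to 0.177. Calls gained were Micu2 to Mcu in mtDNA NZB cells without activated replicate 4 and Mcur1 to Mcu in mtDNA B6 cells without resting replicate 3. DESeq2 changed 1 of 40 results, Mcur1 in mtDNA NZB cells (adjusted p = 0.0603), and RLE size factors none. At its depth resting mtDNA NZB replicate 2 gives no count of Mcub or Slc8b1.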
